A study of Caenorhabditis elegans with 43 samples.

Results

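The genes described here were 40 C. elegans genes of synapses and transmitters, listed by symbol for what their proteins do. No measured value entered the rule, but the list was chosen with earlier results of these data known. They were 40 of the 20182 genes in the deposited count table, and all 40 had a row and passed the filter on low values (a mean of at least 1 CPM, the count of a gene scaled to the library total). Libraries of ribosome-depleted total RNA had been made from whole worms of 4 strains, with 1 library per strain and hour from 18 to 38 h of development at 25 °C, in steps of 2 h. The strains were let-7(n2853), sampled to 36 h (10 libraries), lin-41(xe11) (11 libraries), lin-41(xe11);let-7(n2853), called the double mutant here (11 libraries), and N2, the laboratory wild type (11 libraries). As background, n2853 is a point mutation in the seed of the let-7 microRNA that lowers its activity at higher temperature. xe11 changes the let-7 sites of lin-41, the main let-7 target, so that they pair with the mutant microRNA. Nothing in the labels says that a strain's libraries are separate cultures, so p-values measure only the spread between these libraries.

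A chemical synapse works by loading transmitter into vesicles, docking and priming them at the active zone, fusing them when calcium enters, and taking the membrane back for reuse. Transmitters differ in their synthesis enzymes and in their vesicle or plasma membrane transporters, some of which several transmitters share. Sets of such genes can mark a neuron class, while the release machinery is shared by all classes. Neuropeptides travel in dense-core vesicles, which have processing enzymes and a release factor of their own. In worms most neurons are born before hatching, and a smaller number are added by larval divisions.

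Libraries held 11192438 to 32886532 counts. Those of let-7(n2853) were deeper, at 22891666 to 32886532 counts, against 12586079 to 16118437 counts in N2. The double mutant ranged from 12740611 to 24993324 counts, so its deepest library lay within the let-7(n2853) range. Depth thus went with strain, and a difference of let-7(n2853) from N2 cannot be told apart from one in how its libraries were made. The lowest count of any of the 40 genes in a library was 6, for tph-1. As a check of the labels, lin-41 RNA averaged 124 ± 23.9 CPM in let-7(n2853), 76.2 ± 23.1 CPM in the double mutant, 75.7 ± 25 CPM in lin-41(xe11) and 35.9 ± 6.7 CPM in N2 over 28 to 36 h (SD, n = 5 libraries each). These values cannot tell lin-41(xe11) from the double mutant, and both means lay above that of N2.

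Along development most of these genes fell. The summed level of all 40 was 2450 CPM at 18 h and 1330 CPM at 36 h in let-7(n2853). The same sums were 2440 and 1300 CPM in lin-41(xe11), 2480 and 1270 CPM in the double mutant, and 2590 and 1230 CPM in N2. The median gene was at 0.447 of its 18 h level at 36 h in let-7(n2853), at 0.469 in the double mutant, at 0.471 in lin-41(xe11) and at 0.43 in N2. The decline was spread over the whole course: the N2 sum was 2220 CPM at 22 h, 1900 CPM at 26 h, 1650 CPM at 30 h and 1370 CPM at 34 h. In samples of whole worms, fewer cells of a type and less RNA per cell cannot be told apart. CPM values of single libraries are scaled to a library total adjusted by TMM, so they are relative levels and not amounts per worm.

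A trend per 2 h was fitted in each strain with edgeR's quasi-likelihood test, beside a rhythm with a period of 8 h, and p-values were adjusted by Benjamini-Hochberg over 13295 genes. In let-7(n2853) 34 of the 40 fell and 0 rose, against 21.7% of all tested genes that fell and 28% that rose. In lin-41(xe11) 34 fell and 2 rose, against 26% and 29% of all genes. In the double mutant 35 fell and 2 rose, against 22.6% and 26.9%. In N2 33 fell and 2 rose, against 27.3% and 33%. The median log2 trend of the 40 genes per 2 h was -0.13 in let-7(n2853), -0.15 in the double mutant, -0.14 in lin-41(xe11) and -0.14 in N2, where the median of all genes lay between 0 and 0.01. The same 33 genes fell in all 4 strains.

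**Figure D1:**
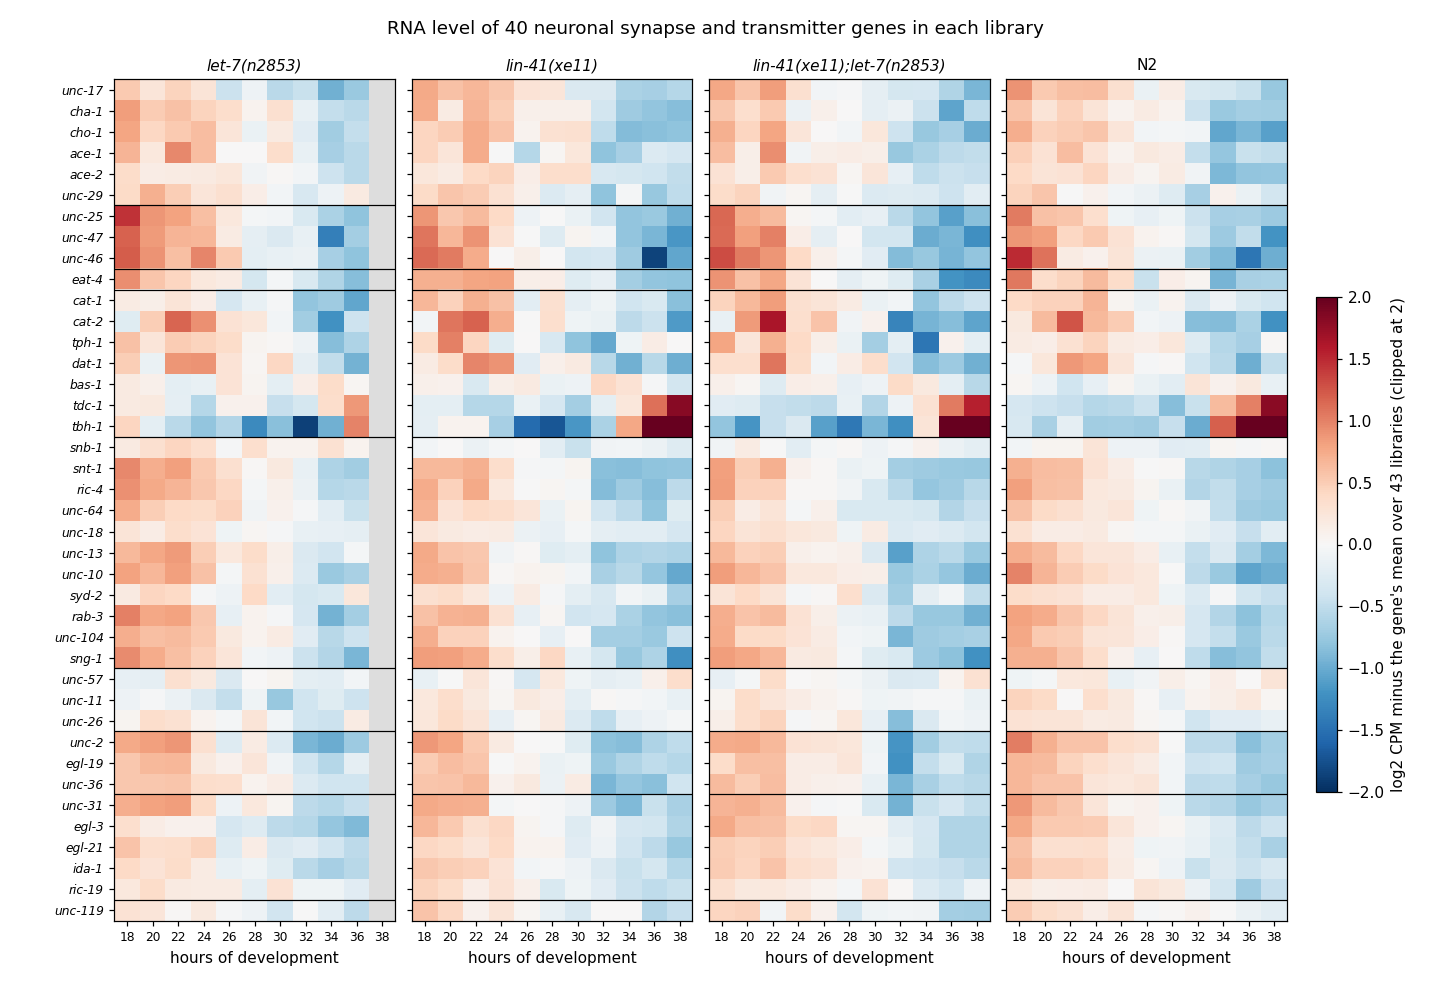
RNA level of the 40 genes (down the page, grouped by role between the black lines) in every library (across, by hour of development and strain). Colour is the log2 CPM minus the gene's mean over all 43 libraries, clipped at 2; grey marks the hour at which let-7(n2853) has no library. Most genes pass from red at 18 h to blue at 36 h in each strain, while tdc-1 and tbh-1 turn red at the end.

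The libraries changed in other tissues over the same hours. The summed level of 12 germline genes at 36 h was 4.05 times its 18 h value in let-7(n2853), 5.42 times in the double mutant, 5.59 times in lin-41(xe11) and 5.01 times in N2, and 12 of 12 rose in each strain. The sum over 15 body wall muscle genes at 36 h was 0.868 of its 18 h value in let-7(n2853), 0.861 in the double mutant, 1.04 in lin-41(xe11) and 0.892 in N2. With libraries scaled to these muscle genes in place of all genes, 28 of the 40 fell in let-7(n2853), where 13.3% of all genes fell. The count was 28 in the double mutant, against 12.3% of all genes, 32 in lin-41(xe11), against 19%, and 30 in N2, against 20.2%. The part of germline growth in the decline of the 40 genes was not tested. The 4 pharynx genes, which include the muscle myosin gene myo-2, also fell, 4 of 4 in every strain.

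Acetylcholine, the main excitatory transmitter of worm motor neurons, was represented by 6 genes, and all 6 fell in every strain. unc-17, the vesicular acetylcholine transporter, was at 9.79 CPM at 18 h and 4.09 CPM at 36 h in let-7(n2853), and at 12.7 and 5.03 CPM in N2. cha-1, the synthesis enzyme choline acetyltransferase, was at 19.7 and 7.6 CPM in let-7(n2853) and at 16.4 and 6.9 CPM in N2. Both lie in 1 locus on chromosome IV and share 66 exonic bases on the same strand, so some reads could belong to either. cho-1, which takes choline back into the neuron, had its highest values from 18 to 24 h in all strains and was at 5.85 CPM at 36 h in let-7(n2853) and at 4.3 CPM in N2.

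The cholinesterases, which break acetylcholine down, differed in shape. ace-1 was higher at 22 h than at 18 h in each strain, with 38.3 CPM at 22 h in let-7(n2853), 37.7 CPM in the double mutant, 33.1 CPM in lin-41(xe11) and 30.3 CPM in N2. ace-2 stayed between 50.7 and 76.8 CPM up to 28 h over all strains, and by 36 h was at 36.7 CPM in let-7(n2853) and 30.9 CPM in N2. unc-29, a subunit of the muscle acetylcholine receptor and so a gene of the receiving side, was at 9.51 CPM at 18 h and 8.32 CPM at 36 h in let-7(n2853), and at 9.97 and 6.66 CPM in N2. Its trend call ended with scaling to muscle genes in let-7(n2853), the double mutant and N2, without the libraries of 20 h in the double mutant and N2, and without those of 36 h in the double mutant.

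GABA, the inhibitory transmitter of worm motor neurons, had the lowest ratio of 36 h to 18 h of the transmitter groups in each strain. Its 3 genes summed to 140 CPM at 18 h and 30.5 CPM at 36 h in let-7(n2853), a ratio of 0.218. The ratio was 0.304 in lin-41(xe11), 0.215 in the double mutant and 0.303 in N2, and 3 of 3 genes fell in each strain. unc-25, the GABA synthesis enzyme glutamic acid decarboxylase (chromosome III, bases 12942651 to 12949883, plus strand, WBcel235), carried most of the sum. Its values in let-7(n2853) ran 124, 84.4, 79.9, 69.4, 52.8, 44.3, 44, 37.1, 29.6 and 26.2 CPM from 18 to 36 h. In N2 they ran 93.5, 68.3, 66.9, 58, 43.2, 40.9, 43.2, 34, 28.9 and 29.1 CPM over the same hours, and 27.5 CPM at 38 h. The series fell almost without a break in both strains, and let-7(n2853) lay above N2 from 18 to 34 h and below it at 36 h alone. The fitted log2 trend per 2 h was -0.23 ± 0.01 in let-7(n2853), -0.21 ± 0.02 in the double mutant, -0.19 ± 0.01 in lin-41(xe11) and -0.18 ± 0.01 in N2 (± standard error; edgeR adjusted p = 1.67e-06, 9.58e-06, 1.68e-06 and 4.53e-06 in that order).

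The vesicular GABA transporter unc-47 and its sorting partner unc-46, a LAMP-like membrane protein, were weaker but fell as much. unc-47 was at 9.59 CPM at 18 h and 2.65 CPM at 36 h in let-7(n2853), and at 7.82 and 3 CPM in N2. unc-46 was at 6.66 and 1.65 CPM in let-7(n2853), at 6.36 and 0.8 CPM in lin-41(xe11), at 7.15 and 1.52 CPM in the double mutant and at 8.12 and 1.06 CPM in N2. In lin-41(xe11) and N2 it had the lowest ratio of 36 h to 18 h among the 40 genes, 0.126 and 0.13.

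eat-4, the vesicular glutamate transporter, fell in every strain. It was at 12.6 CPM at 18 h and 3.69 CPM at 36 h in let-7(n2853), at 10.8 and 3.84 CPM in lin-41(xe11), at 12.4 and 2.89 CPM in the double mutant and at 13.7 and 4.22 CPM in N2. Its fitted log2 trend in the double mutant was -0.22 ± 0.02 per 2 h (edgeR adjusted p = 1.59e-05). It shares exonic bases with ZK512.2 and ZK512.7 on the opposite strand, and ZK512.7 was higher at 36 h than at 18 h in N2, at 96.7 against 12.8 CPM. The sources used here do not give whether counting used the strand.

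**Figure D2:**
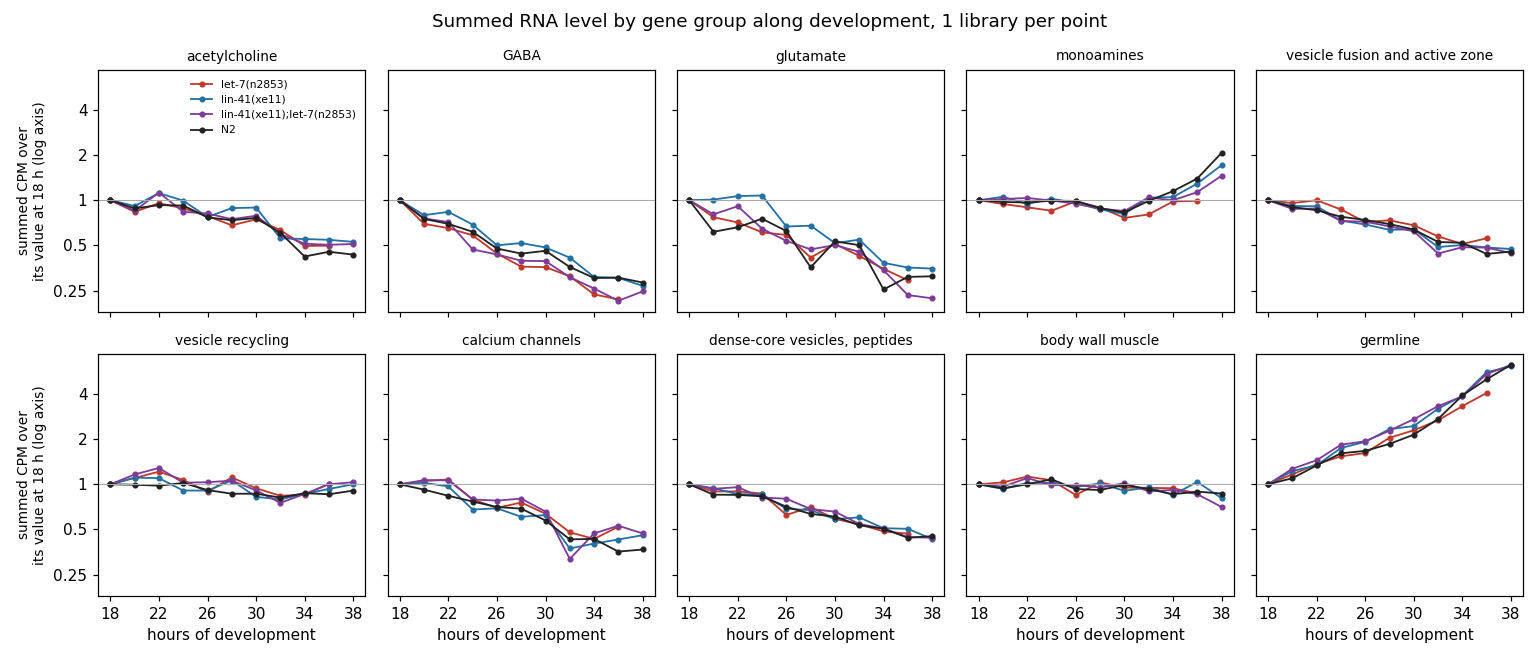
Summed CPM of each transmitter or machinery group, divided by its own value at 18 h (vertical, log axis), by hour of development, with 1 line per strain and 1 library per point; the last panels show body wall muscle and germline genes for comparison. GABA and glutamate lines lie between 0.215 and 0.354 at 36 h, vesicle recycling lines between 0.857 and 1.01, and germline lines between 4.05 and 5.59.

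The 7 monoamine genes did not move as 1 group. Their sum at 36 h was 0.99 of the 18 h value in let-7(n2853), 1.13 in the double mutant, 1.29 in lin-41(xe11) and 1.4 in N2. cat-1, cat-2 and dat-1 fell in every strain, tph-1 fell in let-7(n2853) and the double mutant, and bas-1 changed in none. tdc-1 and tbh-1 were the only genes of the 40 that rose, and they did so in lin-41(xe11), the double mutant and N2.

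The dopamine genes had an early peak. cat-2, tyrosine hydroxylase and the rate-limiting enzyme of dopamine synthesis, was highest at 22 h in all 4 strains, with 8.42 CPM in let-7(n2853), 11.7 CPM in the double mutant, 8.57 CPM in lin-41(xe11) and 9.04 CPM in N2. Its 18 h values were 3.17, 3.4, 3.62 and 4.31 CPM in the same order of strains, and its 36 h values 2.83, 2.1, 2.8 and 2.44 CPM. dat-1, the dopamine reuptake transporter, was highest at 24 h in let-7(n2853), with 11 CPM, and at 22 h in lin-41(xe11), the double mutant and N2, with 11.6, 12.3 and 10.7 CPM. Both genes thus stood higher at 22 h than at 18 h in every strain.

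cat-1, the vesicular monoamine transporter used by all monoamine neurons, was at 6.34 CPM at 18 h and 2.73 CPM at 36 h in let-7(n2853), and at 7.39 and 4.55 CPM in N2. bas-1, the aromatic amino acid decarboxylase shared by dopamine and serotonin synthesis, ranged from 38.4 to 56.7 CPM in let-7(n2853) and from 33.5 to 52.6 CPM in N2, with no trend. tph-1, tryptophan hydroxylase of serotonin synthesis, was the weakest of the 40 genes, at a mean of 0.639 CPM per kb of exon in N2. It was called as falling in let-7(n2853) and the double mutant and not in lin-41(xe11) and N2, and that difference between strains was not tested. Its call in the double mutant ended without the libraries of 18, 22, 24, 28, 32 or 34 h, taken 1 hour at a time, and with scaling to muscle genes or DESeq2.

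tdc-1 and tbh-1 make tyramine and octopamine. tdc-1, tyrosine decarboxylase (chromosome II, bases 8270597 to 8273615, plus strand), turns tyrosine into tyramine, and tbh-1, tyramine beta-hydroxylase (chromosome X, bases 15500256 to 15504895, minus strand), turns tyramine into octopamine. As background, both are also known in the sheath cells of the gonad, outside the nervous system, and tdc-1 in uterine cells. tdc-1 stayed between 12.7 and 21.5 CPM up to 32 h in let-7(n2853) and was then at 24.1 and 34.2 CPM at 34 and 36 h. In lin-41(xe11) it was at 22, 40.5 and 66.6 CPM at 34, 36 and 38 h. In the double mutant the same hours gave 23.1, 38.6 and 55.1 CPM, and in N2 29.3, 37.9 and 65.7 CPM, after 10.4 to 14.9 CPM up to 32 h. The late rise was thus visible in all 4 strains.

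tbh-1 lay between 0.486 and 2.38 CPM in all strains up to 32 h. In let-7(n2853) it was then at 0.908 CPM at 34 h and 3.51 CPM at 36 h. In lin-41(xe11) it was at 3.03, 14.3 and 37.3 CPM at 34, 36 and 38 h. In the double mutant it was at 2.12, 7.95 and 27.8 CPM, and in N2 at 4.04, 13.5 and 49.4 CPM. At 36 h the N2 level was 9.52 times that at 18 h.

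The fitted log2 trends of tbh-1 were -0.02 ± 0.07 in let-7(n2853), 0.39 ± 0.11 in the double mutant, 0.38 ± 0.12 in lin-41(xe11) and 0.46 ± 0.12 in N2 per 2 h (± standard error), and only the last 3 passed the test. For tdc-1 they were 0.04 ± 0.02, 0.16 ± 0.04, 0.18 ± 0.05 and 0.19 ± 0.05 in the same order of strains, again with let-7(n2853) not called. The let-7(n2853) fit has no library at 38 h. Without the 38 h libraries the trend of tbh-1 was 0.23 in both lin-41(xe11) and the double mutant and no longer passed, whereas both genes still passed in N2. In lin-41(xe11) the call of tbh-1 also ended without 20, 22, 34 or 36 h and that of tdc-1 without 22 h, and in the double mutant that of tbh-1 without 20 or 22 h. In let-7(n2853) tbh-1 was called as falling without 36 h, at -0.18 per 2 h, and tdc-1 was called as rising with scaling to muscle genes.

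Genes of the gonad were measured beside them. The sum of 4 genes known in the gonadal sheath was 65.4 CPM at 18 h and 83.4 CPM at 36 h in let-7(n2853), and 60.2 and 89.4 CPM in N2, with 107 CPM at 38 h. Of these 4 genes 1 rose and 1 fell in let-7(n2853) and in the double mutant, while 2 rose and 1 fell in lin-41(xe11) as in N2. The part of gonad cells in the rise of tdc-1 and tbh-1 was not tested. tbh-1 shares 398 exonic bases with suox-1 and H13N06.7 on the opposite strand, and suox-1 was lower at 36 h than at 18 h in N2, at 76.7 against 121 CPM. tdc-1 shares 73 exonic bases with gei-14 on the opposite strand, which was at 33.2 CPM at 36 h and 7.63 CPM at 18 h in N2. If counting ignored strand, reads of each pair in those bases cannot be told apart.

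**Figure D3:**
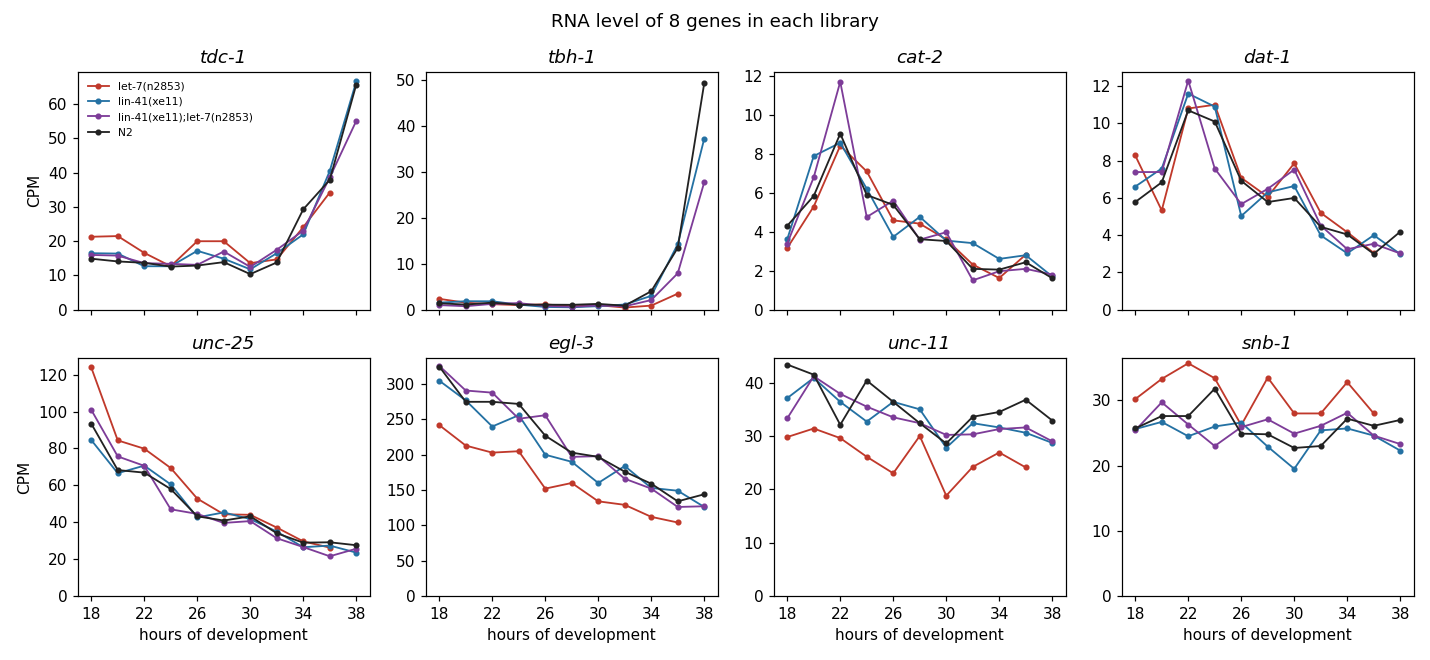
CPM of 8 genes (vertical, linear axes from 0) by hour of development, with 1 library per point and 1 line per strain. tdc-1 and tbh-1 climb after 32 h, cat-2 and dat-1 peak at 22 to 24 h, unc-25 falls throughout, the let-7(n2853) line of egl-3 and unc-11 runs below the others, and its snb-1 line runs above N2 at most hours.

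Of the 11 genes of vesicle fusion and the active zone, 10 fell in each strain. Their sum was 993 CPM at 18 h and 553 CPM at 36 h in let-7(n2853), 984 and 475 CPM in the double mutant, 963 and 466 CPM in lin-41(xe11), and 993 and 435 CPM in N2. Among the genes whose proteins act in fusion itself, snt-1, the calcium sensor synaptotagmin, was at 82.6 CPM at 18 h and 26.1 CPM at 36 h in let-7(n2853), and at 69.2 and 26.8 CPM in N2. Its log2 trend was -0.18 ± 0.01 per 2 h in let-7(n2853) and -0.17 ± 0.01 in N2 (edgeR adjusted p = 2.47e-06 and 1.35e-06). ric-4, the SNAP-25 of the fusion complex, was at 90.9 and 33 CPM in let-7(n2853) and at 84.5 and 30.2 CPM in N2. unc-64, syntaxin, was at 67 and 29.5 CPM in let-7(n2853) and at 60.1 and 24.4 CPM in N2.

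snb-1, synaptobrevin, is the vesicle protein of the same fusion complex, and its RNA did not follow its partners. It stayed between 26.2 and 35.7 CPM in let-7(n2853), between 19.5 and 26.7 CPM in lin-41(xe11), between 23 and 29.7 CPM in the double mutant and between 22.7 and 31.8 CPM in N2. Its fitted log2 trends, -0.02 to -0.01 per 2 h, passed in no strain. unc-18, the Munc18 that binds syntaxin, fell in all strains but by less than most: it was at 166 CPM at 18 h and 122 CPM at 36 h in let-7(n2853), and at 171 and 101 CPM in N2.

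The priming factor unc-13 was at 142 CPM at 18 h and 88.7 CPM at 36 h in let-7(n2853), and at 150 and 57.1 CPM in N2. unc-10, the active zone scaffold RIM, was at 73.4 and 26.7 CPM in let-7(n2853) and at 82.8 and 20.2 CPM in N2. rab-3, the vesicle GTPase that binds RIM, was at 46.3 and 14.4 CPM in let-7(n2853) and at 40.5 and 13.1 CPM in N2, and its log2 trend was -0.21 ± 0.02 per 2 h in let-7(n2853) and -0.19 ± 0.01 in the double mutant. unc-104, the kinesin that carries synaptic vesicles down the axon, was at 175 and 79.4 CPM in let-7(n2853) and at 180 and 63.1 CPM in N2. sng-1, the vesicle protein synaptogyrin, was at 24.5 and 6.78 CPM in let-7(n2853) and at 20.9 and 7.39 CPM in N2. syd-2, liprin-alpha, which places active zones, moved least of these, with 66.3 to 113 CPM in let-7(n2853) and 61.1 to 109 CPM in N2.

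The vesicle recycling genes changed little. Their sum at 36 h was 1.01 of the 18 h value in let-7(n2853), 0.996 in the double mutant, 0.928 in lin-41(xe11) and 0.857 in N2. unc-57, endophilin, ranged from 37.6 to 57.1 CPM in let-7(n2853) and from 41.4 to 54.7 CPM in N2 and was called in no strain. unc-26, synaptojanin, fell in all strains with a log2 trend of -0.07 to -0.05 per 2 h. Its call ended with scaling to muscle genes in let-7(n2853), the double mutant and lin-41(xe11). Without the rhythm in the fit it ended in let-7(n2853) and the double mutant. unc-11, the AP180 clathrin adaptor, fell in the double mutant and lin-41(xe11), with a log2 trend of -0.04 ± 0.01 in each, and was at -0.04 ± 0.02 in let-7(n2853) and -0.02 ± 0.01 in N2. Those calls of unc-11 ended without the libraries of 20 or 22 h in both strains, without 38 h in the double mutant, and with scaling to muscle genes.

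**Figure D4:**
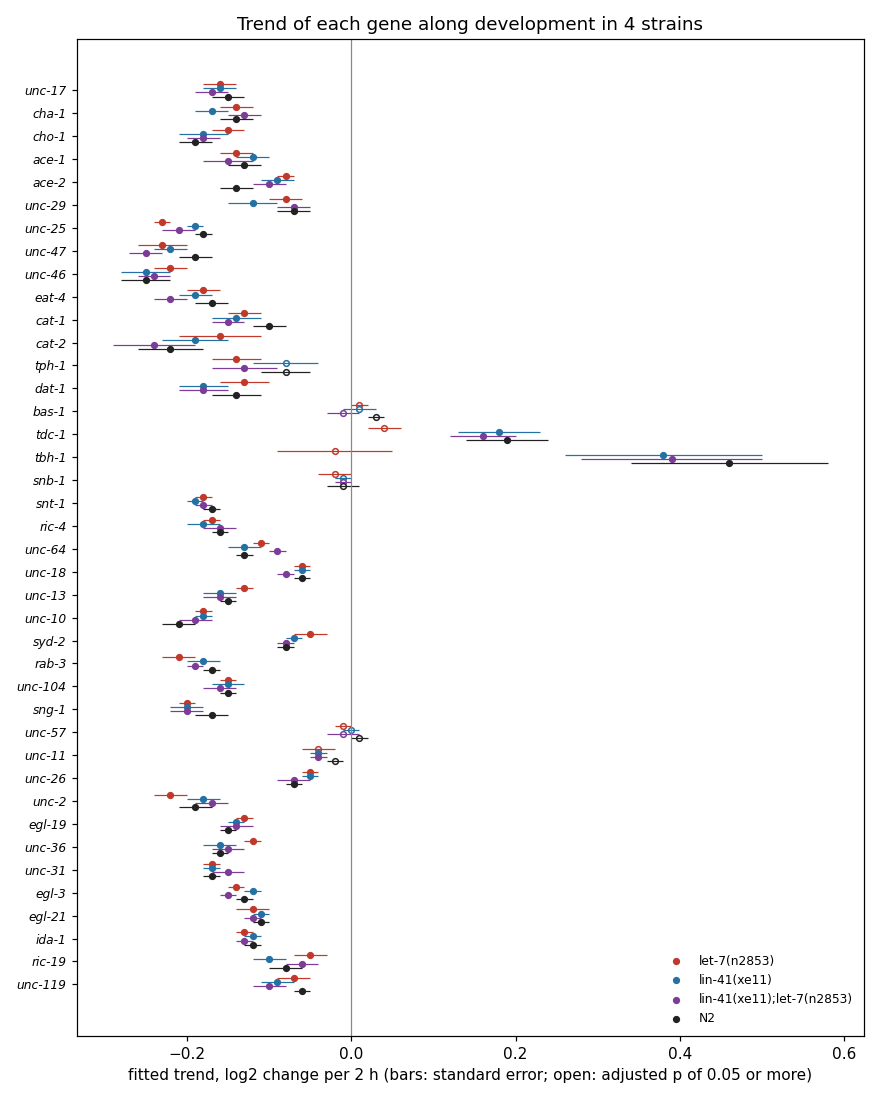
Fitted trend of each gene (down the page, by role) in log2 change per 2 h, with 1 point per strain and bars of 1 standard error; open points have an adjusted p of 0.05 or more. Nearly all points lie left of 0, between -0.25 and -0.04, while bas-1, snb-1 and unc-57 sit near 0 and tdc-1 and tbh-1 lie to the right in 3 strains.

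All 3 calcium channel genes fell in each strain. unc-2, the main subunit of the presynaptic CaV2 channel, was at 80.2 CPM at 18 h and 28.8 CPM at 36 h in let-7(n2853), at 87.3 and 31.2 CPM in lin-41(xe11), at 79.7 and 33.8 CPM in the double mutant and at 97.4 and 26.6 CPM in N2. egl-19, the L-type CaV1 channel, which is also the channel of muscle action potentials, was at 158 and 95.9 CPM in let-7(n2853) and at 172 and 66.2 CPM in N2. unc-36, their alpha2-delta subunit, was at 64.9 and 33.7 CPM in let-7(n2853) and at 71 and 28.3 CPM in N2. In the 32 h library of the double mutant all 3 stood low: unc-2 was at 21 CPM, egl-19 at 47.1 CPM and unc-36 at 23.8 CPM, against 33.2, 81.7 and 31 CPM in N2 at that hour.

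The dense-core vesicle and peptide processing genes included the most abundant of the 40. Per kb of exon, egl-3 averaged 84.7 CPM per kb, egl-21 74.8 CPM per kb and ida-1 47.3 CPM per kb over the N2 libraries, at ranks 1, 2 and 4 of the 40. The gene at rank 3 was unc-18, with 51.5 CPM per kb. All 5 genes of the group fell in each strain. egl-3 encodes the proprotein convertase that cuts neuropeptide precursors and egl-21 the carboxypeptidase that trims the cut ends. egl-21 was at 183 CPM at 18 h and 85.4 CPM at 36 h in let-7(n2853), and at 185 and 88.7 CPM in N2. ida-1, a phosphatase-like protein of dense-core vesicle membranes, was at 150 and 78 CPM in let-7(n2853) and at 178 and 84.8 CPM in N2.

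unc-31, the CAPS protein that primes dense-core vesicles, was at 43.3 CPM at 18 h and 19 CPM at 36 h in let-7(n2853), and at 47.8 and 15.5 CPM in N2, with a log2 trend of -0.17 ± 0.01 per 2 h in both. ric-19, which acts in the maturation of these vesicles, was at 10.9 and 8 CPM in let-7(n2853) and at 10.8 and 5.76 CPM in N2. unc-119, a gene used as a marker of all worm neurons, was at 11.5 and 6.53 CPM in let-7(n2853) and at 13.4 and 8.61 CPM in N2. The falling trend calls of ric-19 and unc-119 ended with scaling to muscle genes in let-7(n2853), the double mutant and N2. Some trend calls in let-7(n2853) rested on single hours. The call of cat-2 ended without 20, 22, 30, 32, 34 or 36 h, and that of syd-2 without 18, 22 or 34 h. That of unc-26 ended without 32 or 34 h, and that of ric-19 without any hour but 28 and 30 h. In the same strain the calls of cat-2, syd-2 and unc-26 also ended with scaling to muscle genes, and without the rhythm in the fit. In the double mutant the call of unc-26 ended without 22 h, and that of syd-2 with scaling to muscle genes. In N2, bas-1 was called as rising without 34 h, and bas-1 and unc-57 with scaling to muscle genes.

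The decline extended to other genes of the nervous system. Of 46 further synapse genes (receptors, G protein pathway, adhesion and channel genes), 43 fell in let-7(n2853), 43 in the double mutant, 44 in lin-41(xe11) and 42 in N2, and 1 rose in each strain. Their median log2 trend was -0.12 per 2 h in let-7(n2853) and -0.13 in each of the other strains. In N2 the 4 of smallest p were sad-1, a kinase of presynaptic assembly (-0.18 ± 0.01), lev-1, a muscle acetylcholine receptor subunit (-0.15 ± 0.01), dgk-1, a diacylglycerol kinase that limits release (-0.15 ± 0.01), and nrx-1, neurexin (-0.2 ± 0.01). cat-4, which makes a cofactor of monoamine synthesis, was the 1 that rose in N2, at 0.06 ± 0.02 per 2 h, and was named after its value was seen. Of 9 tested neuronal transcription factor genes, 9 fell in let-7(n2853), 9 in the double mutant, 9 in lin-41(xe11) and 8 in N2, with medians of -0.22, -0.24, -0.25 and -0.23 in the same order.

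The strains were compared over an early window (18 to 26 h) and a late window (28 to 36 h) with 5 libraries per strain each, in a fit that pairs the strains by hour. In the late window, let-7(n2853) had 7 of the 40 genes lower and 2 higher than N2, where 12.5% of all tested genes were lower and 10.6% higher. In the early window 5 were lower and 4 higher, where 10.1% of all genes were lower and 8.34% higher. The share of the 40 genes called, 22.5% in either window, thus lay near that of all genes, 23.1% late and 18.5% early. The median log2 difference of the 40 was 0.08 late and 0.05 early, against -0.02 and -0.01 for all genes. The genes unc-17, cat-1, snb-1, unc-11, egl-3 and ida-1 were called the same way in both windows.

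egl-3 (chromosome V, bases 10169177 to 10173753, minus strand) had the smallest p. From 18 to 34 h its values in let-7(n2853) ran 242, 213, 203, 205, 152, 160, 134, 129 and 112 CPM, against 325, 275, 275, 272, 227, 203, 197, 176 and 159 CPM in N2. It was lower in let-7(n2853) at every hour of both windows, with a log2 difference of -0.45 ± 0.06 late (edgeR adjusted p = 4.15e-06) and -0.44 ± 0.06 early (5.66e-06). Its late window means were 128 ± 21.7 CPM in let-7(n2853), 168 ± 30.5 CPM in the double mutant, 167 ± 18.5 CPM in lin-41(xe11) and 174 ± 28.2 CPM in N2 (SD, n = 5 libraries each).

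unc-11 (chromosome I, bases 3798396 to 3805739, minus strand) was at 30, 18.8, 24.2, 26.9 and 24.1 CPM from 28 to 36 h in let-7(n2853), against 32.4, 28.6, 33.6, 34.5 and 36.8 CPM in N2. It was lower at 5 of 5 hours in either window, by a log2 difference of -0.43 ± 0.08 late (edgeR adjusted p = 0.000206) and -0.48 ± 0.08 early (6.56e-05). snb-1 (chromosome V, bases 6655562 to 6656501, minus strand) went the other way: it was at 33.5, 28, 28, 32.8 and 28 CPM in let-7(n2853) over the late hours, against 24.8, 22.7, 23, 27.2 and 26.1 CPM in N2. It was higher at 5 of 5 hours, with a log2 difference of 0.28 ± 0.07 late (edgeR adjusted p = 0.00514) and 0.2 ± 0.07 early (0.042).

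tbh-1 had the largest late difference, -1.34 ± 0.27 (edgeR adjusted p = 0.000676). Its late values in let-7(n2853) were 0.732, 0.991, 0.486, 0.908 and 3.51 CPM, against 1.08, 1.28, 0.889, 4.04 and 13.5 CPM in N2, so most of the gap lay at 34 and 36 h. Its late difference minus its early one was -1.54 ± 0.38 and did not pass (edgeR adjusted p = 0.135). It was called without the libraries of 28 h or of 30 h and with let-7(n2853) reads thinned to the depth of the other strains, an alternative chosen after seeing the data.

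The germline genes were also lower in these libraries, 10 of 12 late and 3 of 12 early in let-7(n2853), with median log2 differences of -0.41 and -0.2. Late minus early was called for 0 of the 12. The part of the germline in the tbh-1 value was not tested. The gonadal sheath genes had 0 of 4 called late in let-7(n2853), with a median log2 difference of -0.15.

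The other genes called in let-7(n2853) had smaller or less even differences. Late, unc-17 was at -0.33 ± 0.1, cat-1 at -0.37 ± 0.13, unc-119 at -0.23 ± 0.08, ida-1 at -0.16 ± 0.05 and unc-13 at 0.24 ± 0.09 on the log2 scale. Early, unc-25 was at 0.3 ± 0.06, tdc-1 at 0.41 ± 0.1, snt-1 at 0.2 ± 0.07, unc-17 at -0.38 ± 0.09, cat-1 at -0.35 ± 0.12 and ida-1 at -0.22 ± 0.05. Early unc-25 and tdc-1 were higher in let-7(n2853) than in N2 at 5 of 5 hours, tdc-1 at 24 h by a log2 difference of only 0.01. Late, their fitted log2 differences were 0.03 ± 0.06 for unc-25, higher at 4 of 5 hours, and 0.1 ± 0.1 for tdc-1, higher at 3 of 5, and the change between the windows passed for neither.

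Most of these calls rested on the pairing by hour: without it, unc-11 and snb-1 were called late and unc-11 early, and egl-3 was not. Part of them also rested on single hours. Without the libraries of 34 h, or of 36 h, 5 of the late calls were left, and leaving out 1 late hour ended the call of unc-17 (30, 34 or 36 h), cat-1 (32, 34 or 36 h), unc-119 (30, 34 or 36 h), ida-1 (34 h) and unc-13 (28, 30, 32 or 36 h). In the early window it ended those of unc-17 (26 h), snb-1 (18, 20 or 22 h), and cat-1 and snt-1 (each early hour). With libraries scaled to muscle genes the late split was 4 higher and 3 lower and the early one 9 higher and 3 lower, and egl-3, unc-11 and snb-1 kept their calls. In that scaling the median of all genes in let-7(n2853) moved to 0.08 late, where it was at -0.02.

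**Figure D5:**
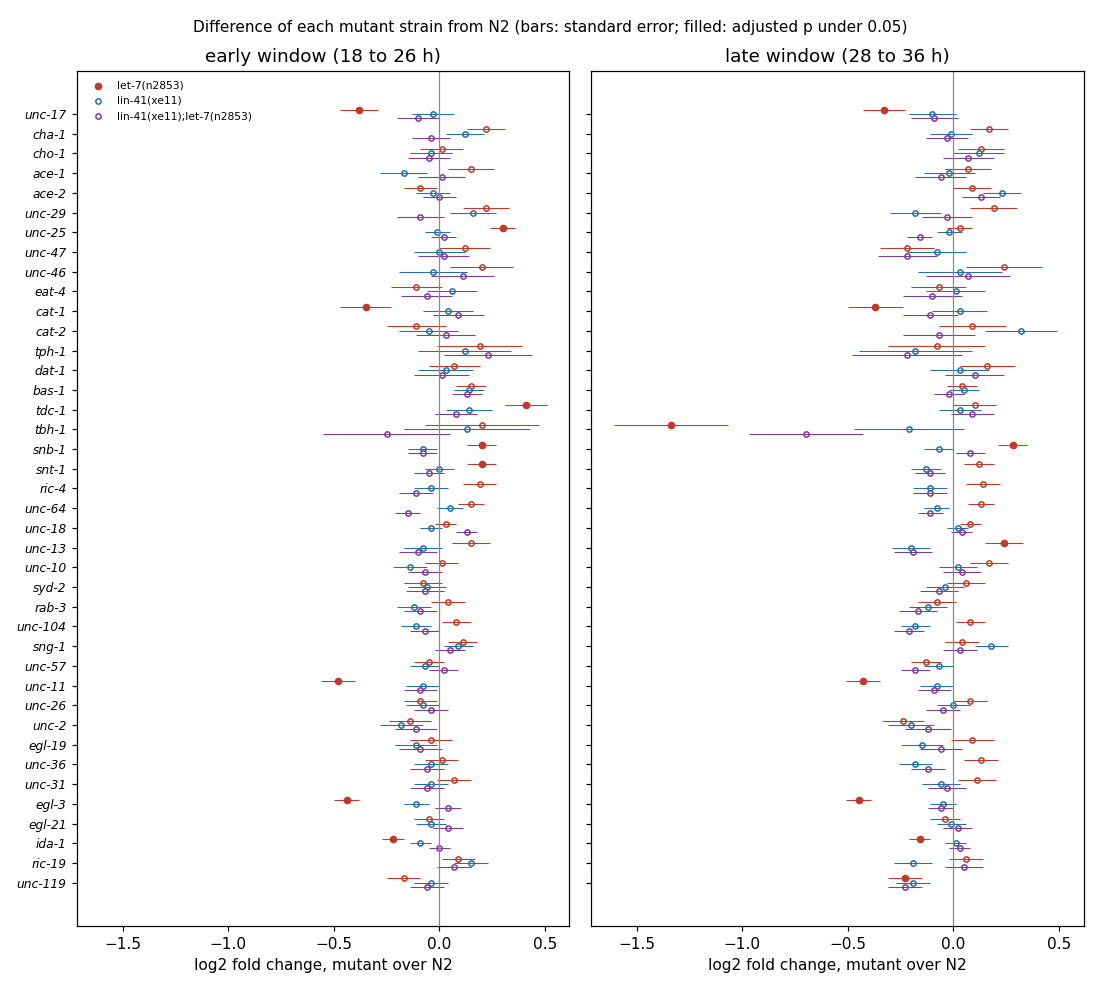
Fitted log2 fold change of each mutant strain over N2 for the 40 genes (down the page, by role) in the early and late windows, with bars of 1 standard error; filled points have an adjusted p under 0.05. Filled points occur in let-7(n2853) alone, with egl-3 and unc-11 left of 0 and snb-1 right of 0 in both windows and tbh-1 far left in the late one.

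Neither strain with the altered lin-41 sites had a called difference from N2 among the 40 genes. In lin-41(xe11), edgeR called 0 in the late window (0.369% of all genes were called) and 0 in the early one (0.0677%). At an unadjusted p under 0.05 there were 2 higher and 5 lower late and 1 higher and 0 lower early. In the double mutant it called 0 late (0.933% of all genes) and 0 early (0.15%), with 0 higher and 6 lower late and 1 higher and 1 lower early at an unadjusted p under 0.05. DESeq2 also called 0 in each of these windows. The late log2 differences of the 40 genes lay between -0.21 and 0.32 in lin-41(xe11), with a median of -0.05, and between -0.7 and 0.13 in the double mutant, with a median of -0.07. Over all genes the medians were -0.02 for lin-41(xe11) and -0.03 for the double mutant.

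Single genes show what was measured in these strains. egl-3 was at 190, 160, 184, 153 and 149 CPM from 28 to 36 h in lin-41(xe11), at 197, 198, 166, 152 and 126 CPM in the double mutant, and at 203, 197, 176, 159 and 134 CPM in N2, so the ranges overlapped. tbh-1 in the double mutant, at -0.7 ± 0.27, had the largest late difference of the 40 in these strains and did not pass (edgeR adjusted p = 0.27). Its late values were 0.655, 0.941, 0.754, 2.12 and 7.95 CPM in the double mutant, against 1.08, 1.28, 0.889, 4.04 and 13.5 CPM in N2. That a p misses the threshold does not show that the strains were alike.

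The change of a strain's difference between windows was tested as late minus early. It was called for 0 of the 40 genes in each mutant strain. Of all genes, 0.0827% were called for let-7(n2853), 0.0226% for lin-41(xe11) and 0.00752% for the double mutant. DESeq2 called 0 in each as well. At an unadjusted p under 0.05 there were 0 higher and 3 lower in let-7(n2853), 1 higher and 2 lower in lin-41(xe11), and 0 higher and 1 lower in the double mutant.

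let-7(n2853) was also set against the double mutant, which carries the same let-7 allele and differs in the lin-41 sites. In the late window 8 of the 40 genes were higher in let-7(n2853) and 3 lower, where 11.7% of all genes were higher and 11.4% lower. Without the pairing by hour, 0 were higher and 1 was lower, unc-11. Higher were mostly genes of vesicle fusion and transport, 6 of 11 in that group, with all 11 fitted values above 0. unc-13 was at 117, 98.8, 74.7, 69.7 and 88.7 CPM from 28 to 36 h in let-7(n2853), against 97.7, 74.3, 43.1, 59.1 and 62.5 CPM in the double mutant, a log2 difference of 0.44 ± 0.09 (edgeR adjusted p = 0.000728). unc-104 was at 0.29 ± 0.07 (0.00273), unc-64 at 0.24 ± 0.06 (0.00617), snt-1 at 0.23 ± 0.07 (0.0162) and unc-36 at 0.25 ± 0.08 (0.0219). The remaining calls higher in let-7(n2853) were ric-4, unc-25 and snb-1.

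The 3 lower genes were egl-3 at -0.39 ± 0.06 (edgeR adjusted p = 2.56e-05), unc-11 at -0.34 ± 0.08 (0.00187) and ida-1 at -0.19 ± 0.05 (0.00649). egl-3 and unc-11 were thus lower in let-7(n2853) than in either N2 or the double mutant, at 5 of 5 hours in both comparisons. Both comparisons use the same let-7(n2853) libraries, which were the deeper ones, so strain and library making cannot be told apart in either.

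In the 32 h library of the double mutant, the 7 of the 40 genes with at least 4000 exonic bases (unc-13, unc-10, unc-104, unc-2, egl-19, unc-36 and unc-31) had a median log2 difference of -0.58 from N2, against -0.11 for the other 33. Over all tested genes of that length the median was -0.25 in that library, and 0.01 for shorter ones. Without 32 h, 6 of the 11 calls remained, 3 higher and 3 lower, and those of snt-1, ric-4, unc-25, snb-1 and unc-36 ended. Of these 5 only unc-36 is among the 7 long genes. The long genes unc-13 and unc-104 kept their calls, and both had their largest late log2 difference from the double mutant at 32 h, 0.79 and 0.69. The part of length in the calls was not tested. Those of unc-25 and snb-1 also ended without any other late hour, those of snt-1 and ric-4 without 30 h, and that of unc-36 without 34 h. The call of snb-1 also ended with RLE size factors (adjusted p = 0.052) and with DESeq2 (adjusted p = 0.0503). With scaling to muscle genes the split was 13 higher and 2 lower, where the median of all genes was at 0.14.

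Among 46 further synapse genes, 6 were higher and 6 lower late in let-7(n2853) than in N2, where 10.6% of all genes were higher and 12.5% lower. Against the double mutant 10 were higher and 4 lower, where 11.7% and 11.4% of all genes were. The 4 of smallest p against N2 were unc-103, a potassium channel (-0.38 ± 0.06), unc-63, an acetylcholine receptor subunit (-0.37 ± 0.08), egl-30, the G protein alpha subunit that promotes release (-0.36 ± 0.09), and ric-3, a chaperone of acetylcholine receptors (0.3 ± 0.08). In the double mutant 1 was lower late than in N2, the dopamine receptor gene dop-3 at -0.47 ± 0.1, and in lin-41(xe11) 0 were called.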

How the data were processed

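Counts per gene and library for 20182 genes were deposited by the authors; mapping, counting, strand setting and genome build are not given in the sources used here. A second deposited table of transformed values was not used. Per the labels, worms were grown at 25 °C, RNA was depleted of ribosomal RNA and libraries were made with ScriptSeq v2. Gene symbols came from the reference name table (18681 rows matched) and positions from the Ensembl release 115 annotation of WBcel235 (19513 rows). All 903 pairs of libraries differed beyond sampling noise (chi-square per degree of freedom of at least 4.249). Counts were scaled with TMM and tested in edgeR 4.0.16 (R 4.3.3) by its quasi-likelihood test over the 13295 genes that averaged 1 CPM or more, with Benjamini-Hochberg adjustment and a threshold of 0.05. Values per library are CPM on the TMM-scaled size, and ± after a fitted value is its standard error.

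Trends were fitted per strain as a line along hours with a cosine and sine of period 8 h (7 residual degrees of freedom in N2 and 6 in let-7(n2853)). Strains were compared over 40 libraries of 18 to 36 h with hour as a factor and a term per mutant and window (24 residual degrees of freedom). With 1 library per strain and hour, the hours of a window stood as the 5 samples of a group, and the hour, from the labels, served as the replicate block. Alternatives were RLE size factors, scaling to 15 muscle genes, no filter, DESeq2 1.42.0, no replicate block, a linear hour without rhythm, and each hour left out. The scripts were tested on simulated data. The 40 genes and all lists were chosen with earlier results of these data known. All 40 have their levels given; fitted values are given for at most 8 called genes of smallest p per comparison, and any others named were chosen after their values were seen.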

Additional observations from a re-analysis of the deposited data

Results flagged for a closer look

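Of 24 sets of 5 hourly differences behind the named strain effects, 2 held an hour far from the other 4 (gap over range above 0.71); chance gives about 1 in 20. For ida-1 in let-7(n2853) against N2 it was 34 h, with a log2 difference of -0.37, where the other late hours lay between -0.12 and -0.08. For unc-104 in let-7(n2853) against the double mutant it was 32 h, at 0.69, where the others lay between 0.12 and 0.26.

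For 8 named genes, the late effect of let-7(n2853) against N2 differed from that of the double mutant against N2, by the fitted contrast. They were picked as the called genes of smallest p in that same contrast, so all 8 pass by choice. That contrast called 11 of the 40 genes, where 11.7% of all genes were higher and 11.4% lower. Without the pairing by hour only unc-11 kept its call. The differences on the log2 scale were -0.39 for egl-3, 0.44 for unc-13, -0.34 for unc-11, 0.29 for unc-104, 0.24 for unc-64, -0.19 for ida-1, 0.23 for snt-1 and 0.25 for unc-36.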

How the results depend on the processing

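Among the called genes of smallest p, at most 8 per comparison, no direction turned under any alternative run. Outside these, the log2 trend of unc-11 in the double mutant, called as falling, was 0 with scaling to muscle genes. The trend counts in all 4 strains, both directions together, stayed within 1.5 times. The 2 rises in lin-41(xe11) were 0 without 22 h and 1 without 20, 34, 36 or 38 h, those in the double mutant 1 without 20, 22 or 38 h, and those in N2 3 without 34 h and 4 with scaling to muscle genes, which also gave let-7(n2853) 1. Without the replicate block, calls among the 40 genes were 2 for let-7(n2853) against N2 late and 1 early, where the blocked fit gave 9 in each, and 1 against the double mutant late, where the blocked fit gave 11. With no filter on low counts, let-7(n2853) had 5 late calls. With its reads thinned to the other strains' depth, an alternative chosen after seeing the data, late minus early had 1 call, tbh-1. Against N2 that run gave 2 higher and 7 lower late, and 6 higher and 5 lower early. Against the double mutant late it gave 7 higher and 5 lower. There tbh-1 and unc-17 were called lower, and unc-25 was no longer called. The cause was not tested in these cases. With each hour left out, calls in let-7(n2853) against N2 ranged from 5 to 9 late, 6 to 10 early and 0 to 1 late minus early, and from 6 to 11 against the double mutant. Trend calls ranged from 30 to 34 in let-7(n2853), 33 to 36 in lin-41(xe11), 33 to 37 in the double mutant and 34 to 36 in N2. In the other comparisons they stayed at 0. Counted over the 40 genes and all hours, leaving out an hour kept 1485 trend calls, ended 43 and began 2; between strains it kept 241, ended 49 and began 4. Leaving out the replicate block kept 4 and ended 25. Depth limits the weakest genes most: tph-1 had counts down to 6.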

Other observations

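With genes split at 4000 exonic bases after the values were seen, the 7 long genes among the 40 had median log2 differences from N2 that moved with the hour. In let-7(n2853) these were 0.3 at 22 h and 0.33 at 36 h, and -0.13 at 18 h and -0.14 at 26 h. The 33 shorter genes lay between -0.08 and 0.09 in that strain at every hour. Over all tested genes of at least 4000 exonic bases (731 genes), the same libraries stood at 0.08, 0.15, -0.12 and -0.14, while the 12236 shorter genes lay between -0.06 and 0.02 at every hour.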
